A study of Mus musculus with 24 samples.

Results

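The core autophagy genes examined here are 45 genes of the 25239 in the expression table, chosen by name for their role in building the autophagosome and loading its cargo, and all 45 were expressed well enough to be tested. They were followed in RNA-seq of 6 mouse small cell lung cancer cell lines in which p53 can be switched back on. The lines came from individual tumors raised with an adenovirus that drives Cre from the CMV promoter in mice homozygous for Rb1 flox, Rbl2 flox and Trp53 XTR that also carry Rosa26 FlpO-ER, so every group shares the loss of Rb1 and Rbl2 and a trapped Trp53 gene, and each line stands for 1 tumor. In the trapped state Trp53 makes no p53, and 4-hydroxytamoxifen (4-OHT) activates the FlpO-ER recombinase, which removes the trap and restores the gene. The study sorted the lines by what followed restoration: Type D lines (4711-1, 4711-18 and 4716-11, here Type D lines 1, 2 and 3) died, whereas Type V lines (4711-11, 4716-10 and 4716-14, here Type V lines 1, 2 and 3) remained viable. Each line gave 4 libraries at 72 h: vehicle alone (Control), cyclosporin A, an inhibitor of cyclophilins (Control + CsA), 4-OHT (Restored), and 4-OHT with cyclosporin A (Restored + CsA). The 24 libraries thus form 8 groups of 3 lines.

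Autophagy encloses cytoplasm in a double membrane, the autophagosome, and delivers it to the lysosome. The ULK1 kinase complex starts the process and the class III phosphatidylinositol 3-kinase complex marks the membrane. WIPI and ATG2 proteins, the ATG9A vesicles and VMP1 bring in lipid, and a pair of ubiquitin-like conjugation systems attach LC3 and GABARAP proteins (the ATG8 family) to it. Receptors such as p62 (encoded by Sqstm1) tether cargo to the ATG8 proteins, and tethers and SNAREs such as EPG5 and syntaxin 17 fuse the vesicle with the lysosome. p53 is known to act on the pathway through target genes, of which Dram1 is a long-known example, and FOXO3 is a transcription factor of many autophagy genes. mRNA levels do not measure autophagic flux.

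TPM values, transcript abundances scaled to a fixed total per library, correct for gene length but keep no record of read depth. Of all genes, 11853 to 12651 per library reached 1 TPM. Trp53 lay between 10.5 and 15.3 TPM in the 12 libraries without restoration and between 181 and 253 TPM in the 12 with it. Of the 9 neuroendocrine markers examined, 4 reached 1 TPM in any Type D library and 5 in any Type V library. The transcription factor gene Neurod1 was at 0 in 21 of the 24 libraries and the granule protein gene Chga in all 24. By contrast Insm1 reached 49.6 TPM, Uchl1 40.9 and Ncam1 27.3, and the summed markers lay between 5.65 and 27.1 TPM in Type D and between 16.2 and 85.8 in Type V. The part of this difference in the results was not tested. The pan-leukocyte gene Ptprc stayed at or below 0.154 TPM, while Cd68, which encodes a lysosomal protein, reached 55.3 and rose with restoration by 1.95 log2 in Type D and by 1.28 in Type V (limma adjusted p = 0.00013 and 0.0077). The part of Cd68-expressing cells in the results was not tested. The T-cell gene Cd3e and both hemoglobin genes were at 0 in all libraries, and the summed endothelial markers stayed at or below 0.539 TPM. In bulk libraries fewer cells of a kind and less RNA per cell cannot be told apart, and the libraries of dying Type D cultures hold the cells that were still present at 72 h.

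Before p53 was restored, the 45 genes spanned a wide range of abundance. The cargo receptor gene Sqstm1 was the most abundant, with a mean of 699.7 ± 236 TPM over the 6 Control libraries (SD), followed by Gabarap (502 ± 111), Map1lc3b (215 ± 44.0), Vmp1 (200.1 ± 60.0), Tax1bp1 (177 ± 36) and Gabarapl1 (171 ± 34.1). Neighbors in this order from Map1lc3b to Gabarapl1 differed by less than their spread. The lowest were Atg10 (5.82 ± 1.66), which encodes the E2-like enzyme of the ATG12 system, the protease gene Atg4c (7.44 ± 1.67) and Atg16l2 (8.40 ± 3.02), a relative of the conjugation scaffold gene Atg16l1 (28.8 ± 3.68). Dram1, which encodes a lysosomal membrane protein, was by far the most uneven, with 0.428, 1.85 and 1.72 TPM in the Type D lines and 2.44, 78.0 and 8.79 TPM in the Type V lines. Type V line 2 alone holds most of that signal.

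Promoters of 4 members are given for 250 bases before an annotated start, from RefSeq on GRCm38.p6, read 5′ to 3′ along the gene. A window was found for 37 of the 45 members. Capitals mark a CACGTG, the core that TFEB and its relatives bind, or a p53 half-site; TGTTTAC, a forkhead core, was also searched, all on both strands. Atg7 and Optn are shown because each rose more in one type, Wipi1 because it rose in both, and Vmp1 because it holds the one p53 half-site.
Atg7, chr6:114670846-114671095 (plus strand): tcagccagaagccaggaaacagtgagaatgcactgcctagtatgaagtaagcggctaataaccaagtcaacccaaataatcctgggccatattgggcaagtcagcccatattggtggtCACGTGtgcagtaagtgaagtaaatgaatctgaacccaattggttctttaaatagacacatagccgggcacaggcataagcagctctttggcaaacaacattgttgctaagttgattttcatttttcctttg
Optn, chr2:5064118-5064367 (minus strand): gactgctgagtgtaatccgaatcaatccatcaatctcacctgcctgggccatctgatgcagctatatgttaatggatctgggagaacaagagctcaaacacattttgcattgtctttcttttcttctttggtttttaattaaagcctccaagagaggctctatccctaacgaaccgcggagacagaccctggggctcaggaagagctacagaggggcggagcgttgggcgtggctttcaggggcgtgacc
Wipi1, chr11:109611390-109611639 (minus strand): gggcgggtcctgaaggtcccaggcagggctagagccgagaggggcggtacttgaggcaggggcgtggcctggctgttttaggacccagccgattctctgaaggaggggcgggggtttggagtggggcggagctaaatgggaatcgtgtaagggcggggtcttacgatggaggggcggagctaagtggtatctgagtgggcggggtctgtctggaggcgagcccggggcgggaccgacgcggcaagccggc
Vmp1, chr11:86683837-86684086 (minus strand): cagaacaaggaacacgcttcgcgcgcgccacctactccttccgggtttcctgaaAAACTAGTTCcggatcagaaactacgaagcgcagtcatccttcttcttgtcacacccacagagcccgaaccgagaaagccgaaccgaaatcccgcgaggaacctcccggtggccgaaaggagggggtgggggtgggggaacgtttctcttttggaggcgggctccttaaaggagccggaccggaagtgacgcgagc

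CACGTG was in 3 of the 37 members (Atg3, Atg5 and Atg7, 8.11%), beside 6.86% of 27025 genes. TGTTTAC was in 0 of 37, beside 3.54% of genes. A p53 half-site was in 1 (2.70%), beside 8.20% of genes, and a full site of 2 half-sites at most 13 bases apart in 0, beside 0.0666%. The match in Vmp1 begins 196 bases before the start, and Vmp1 itself changed on restoration by 0.11 ± 0.30 (Type D) and 0.09 ± 0.30 (Type V) on the log2 scale. Each window describes letters near one annotated start. Some members had more than one window and counted as matched if any window did. The other windows of Vmp1 held no p53 half-site. The Atg7 window lies inside the gene as GENCODE M21 draws it (chr6:114643097-114860614), whose first start is farther upstream, and the Wipi1 window also lies inside the GENCODE gene (chr11:109573331-109611967).

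A subset of the autophagy genes was higher in Restored than in Control Type D cells. Every Restored library received 4-OHT and no Control library did, so an effect of 4-OHT itself and one of p53 cannot be told apart. Of the 45, 8 rose and 0 fell at an adjusted p under 0.05 in limma, a linear model fitted across all genes, against 7.82% of the 14104 tested genes that rose and 5.05% that fell. At an unadjusted p under the same threshold 3563 genes differed. Of the 45 members 5 both passed and changed by at least 1 on the log2(TPM + 1) scale, as did 6.93% of the 14104 genes in either direction. The 5 were Sqstm1, Atg7, Epg5, Atg14 and Wipi1, and Atg12, Pink1 and Nbr1 rose by less. In Type V cells 3 of the 45 rose and 0 fell, against 5.38% and 4.57% of all genes. They were Foxo3, Optn and Wipi1, of which Foxo3 alone reached a change of 1 (5.29% of genes in either direction). The small size of most changes is plain in the medians, which for the 45 genes were 0.38 log2 (Type D) and 0.26 (Type V), beside 0.07 and 0.05 for all genes.

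Many of the small changes ran the same way in each line. In Type D 40 of the 45 genes were higher in Restored than in Control in all 3 lines, where 39.2% of all genes were, and in Type V 27 of the 45 were, where 32.4% of all genes were. The medians of the 45 changes were 0.38, 0.42 and 0.40 log2 in Type D lines 1 to 3, and 0.35, 0.34 and 0.21 in Type V lines 1 to 3. Each line is its own control, and once the line is entered as a block the test loses the spread between lines. With that block 28 members rose and 2 fell in Type D (27.6% and 17.6% of all genes), and 22 rose and 0 fell in Type V (22.8% and 17.8%). The 2 that fell were Atg9a and Fundc1. Counts of direction moved little with the scaling, with 40 to 42 of the 45 changes above 0 in Type D and 35 of 45 in Type V under the deposited TPM, quantile normalization and median-ratio scaling. Among all genes the split moved, from 1103 up and 712 down in Type D with the deposited TPM to 957 up and 1014 down with median-ratio scaling.

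**Figure D1:**
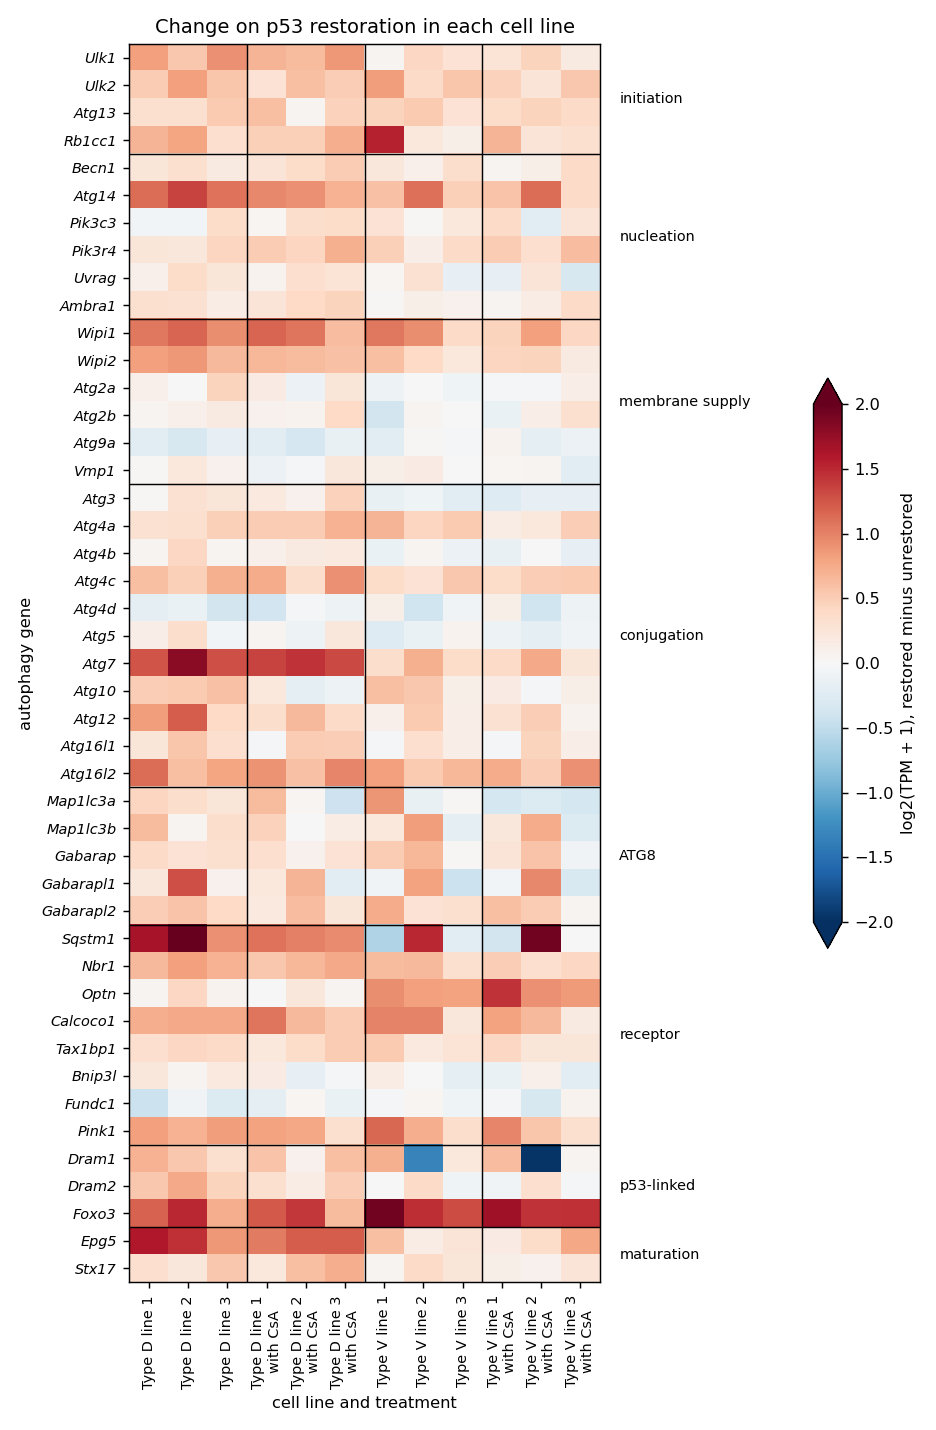
Change of each of the 45 autophagy genes in each cell line when p53 was restored, as log2(TPM + 1) with minus without 4-OHT, with vehicle or with CsA; genes are rows grouped by role, lines are columns, and the color scale is capped at 2. Most cells are pale red, Sqstm1, Atg7, Epg5 and Atg14 are deep red in Type D columns, Foxo3 is red in every column, and the Sqstm1 and Dram1 rows change sign between Type V lines.

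All 4 genes of the initiation complex had positive changes in both types (medians of 0.61 and 0.50 log2), but 0 of 4 passed the test without the block and 4 of 4 passed with it in each type. Of all genes, 7.82% (Type D) and 5.38% (Type V) rose without the block, and 27.6% and 22.8% with it. Ulk1, which encodes the kinase, went from 25.7, 48.2 and 33.4 TPM in Control to 46.0, 70.8 and 64.0 TPM in Restored in the 3 Type D lines. It went from 67.8, 40.4 and 70.0 to 70.7, 54.2 and 85.9 TPM in the Type V lines. Control and Restored libraries thus overlap in both types, although each line rose, and the change was 0.76 ± 0.29 (SE) in Type D (adjusted p = 0.10, and 8.4e-06 with the block) and 0.26 ± 0.29 in Type V (0.71, and 0.035 with the block). Rb1cc1, which encodes the scaffold FIP200, went from 20.5, 27.3 and 23.1 to 33.5, 47.8 and 29.4 TPM in Type D. In Type V it went from 45.5, 22.9 and 25.8 to 135, 26.5 and 28.1 TPM. Type V line 1 thus carries nearly all of its 0.62 ± 0.50 log2 change (adjusted p = 0.55), which nonetheless passed with the block. Ulk2, the second kinase gene, changed by 0.62 and 0.59 log2 and the adaptor gene Atg13 by 0.39 and 0.42 in Type D and Type V.

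In the nucleation complex, Atg14 stood out. It encodes the subunit that directs the lipid kinase to the autophagosome, and it rose in all Type D lines from 12.9, 16.9 and 11.7 to 29.0, 44.3 and 26.0 TPM, with no overlap. The change was 1.18 ± 0.24 log2, a 2.27-fold rise (limma adjusted p = 0.0026). In Type V it went from 11.5, 11.8 and 10.8 to 17.9, 26.4 and 15.4 TPM, again without overlap, and the change of 0.72 ± 0.24 missed the threshold (adjusted p = 0.068, and 0.00099 with the block). The shared subunits of both lipid kinase complexes, Becn1, Pik3c3 and Pik3r4, changed by 0.08 to 0.30 log2 in Type D and by 0.17 to 0.33 in Type V. Uvrag, whose product replaces ATG14 in the endosomal complex, changed by 0.24 and 0.06 and the regulator gene Ambra1 by 0.26 and 0.08. Of the 6 genes, 1 rose in Type D and 0 in Type V without the block (7.82% and 5.38% of all genes), and 4 and 3 with it (27.6% and 22.8%).

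Of the 6 membrane supply genes, Wipi1 rose in both types. Wipi1 encodes a reader of the lipid that the nucleation complex makes. In Type D it went from 42.9, 49.7 and 74.6 to 90.6, 112 and 142 TPM, and in Type V from 50.6, 44.0 and 59.8 to 106, 84.8 and 78.7 TPM. Every Restored library of a type lay above every Control library of that type. The changes were 1.05 ± 0.23 log2 in Type D (2.07-fold, limma adjusted p = 0.0047) and 0.79 ± 0.23 in Type V (1.73-fold, adjusted p = 0.033). Its relative Wipi2, the form that recruits ATG16L1, changed by 0.78 ± 0.28 and 0.41 ± 0.28 and passed only with the block (7.8e-07 and 0.00047, against 0.08 and 0.46 without it). The lipid transfer genes Atg2a and Atg2b and Vmp1 stayed within 0.18 log2 of 0 in both types. Atg9a, which encodes the lipid scramblase of the ATG9 vesicles, went from 37.2, 41.3 and 33.1 to 31.7, 32.8 and 29.4 TPM in Type D, a change of -0.24 ± 0.16 (adjusted p = 0.41, and 0.03 with the block), but 28.8% of the 75-base stretches of its transcripts also occur in other annotated genes.

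Among the conjugation genes, Atg7, which encodes the E1-like enzyme that both conjugation systems share, rose in Type D. It had 50.6, 31.6 and 46.7 TPM in the Type D Control libraries and 122, 113 and 116 TPM after restoration. In the Type V lines it had 31.0, 30.2 and 38.9 TPM and then 39.9, 50.0 and 50.5 TPM. The restored Type D libraries lay far above all others without CsA, which overlapped one another. The rise in Type D was 1.45 ± 0.18 log2, or 2.74-fold (limma adjusted p = 2.1e-05), whereas the change in Type V was 0.48 ± 0.18 (adjusted p = 0.12, and 0.0028 with the block). The study placed Atg7 in a gene module chosen on these samples, so its direction here is not independent evidence. Atg12, the ubiquitin-like protein gene, rose in Type D from 40.6, 36.3 and 53.8 to 73.1, 85.7 and 71.2 TPM (0.82 ± 0.15 log2, adjusted p = 0.0012). In Type V it changed by 0.25 ± 0.15 (adjusted p = 0.38). Atg16l2, also part of a module of the study, went from 4.15, 10.3 and 6.78 to 10.1, 16.2 and 12.5 TPM in Type D and from 10.2, 6.68 and 12.3 to 18.8, 10.1 and 19.9 TPM in Type V. Its changes of 0.83 ± 0.33 and 0.67 ± 0.33 passed only with the block (7.3e-05 and 0.00058). Atg5, whose product is joined to ATG12, changed by 0.14 ± 0.16 and -0.10 ± 0.16 and passed under neither fit. The study targeted Atg5 with CRISPR in Type D cells and reported that death after restoration was not prevented. The E2-like gene Atg3 changed by 0.19 in Type D and -0.15 in Type V, up in all 3 lines of one and down in all 3 of the other. Of the 11 conjugation genes 2 rose in Type D and 0 in Type V without the block (7.82% and 5.38% of all genes), and 7 and 5 with it (27.6% and 22.8%).

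Messenger RNAs of the ATG8 family, already abundant, did not pass the test in either type. The medians of their changes were 0.34 and 0.28 log2. With the block Gabarap and Gabarapl2 rose in each (2 of 5), beside 27.6% (Type D) and 22.8% (Type V) of all genes. Gabarapl2 went from 97.6, 93.5 and 108 to 138, 140 and 144 TPM in Type D without overlap, and from 120, 80.7 and 103 to 200.1, 99.0 and 129 TPM in Type V. Its changes were 0.49 ± 0.24 and 0.45 ± 0.24 (adjusted p = 0.21 and 0.29). Gabarapl1, a known FOXO target, went from 163, 179 and 188 to 192, 441 and 199.7 TPM in Type D. In Type V it went from 107, 186 and 203 to 101, 325 and 150 TPM. Line 2 of each type rose and the other lines moved by less than 0.5 log2, some of them down.

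The receptor genes differed among themselves. Sqstm1 in Type D rose from 618, 596 and 539 TPM to 1944, 2585 and 1014 TPM, with no overlap and a change of 1.56 ± 0.45 log2 (2.95-fold, limma adjusted p = 0.028). In Type V it went from 775 to 509 TPM in line 1, from 525 to 1496 in line 2 and from 1146 to 989 in line 3. The Type V lines therefore moved in different directions, and the mean change of 0.23 ± 0.45 had an adjusted p of 0.87. Optn, the gene of optineurin, a receptor for ubiquitin-marked mitochondria and bacteria, behaved the other way round. It went from 55.4, 75.3 and 58.9 to 106, 134 and 104 TPM in Type V, without overlap (0.85 ± 0.20 log2, 1.81-fold, adjusted p = 0.0073). In Type D it went from 60.3, 40.8 and 56.5 to 62.4, 54.9 and 59.7 TPM, a change of 0.18 ± 0.20 (adjusted p = 0.65, and 0.19 with the block). Nbr1, which encodes a receptor related to p62, rose in Type D by 0.72 ± 0.19 (adjusted p = 0.017) and changed by 0.53 ± 0.19 in Type V (adjusted p = 0.09). Pink1, the kinase gene that flags damaged mitochondria, rose by 0.78 ± 0.23 in Type D (adjusted p = 0.031) and its change of 0.74 ± 0.23 in Type V lay at the threshold (adjusted p = 0.0502). Calcoco1, an ER-phagy receptor gene, changed by 0.75 and 0.74 log2 and Tax1bp1 by 0.38 and 0.33. The mitochondrial receptor genes Bnip3l and Fundc1 changed by 0.16 and -0.25 in Type D and by -0.01 and -0.02 in Type V.

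Of the 3 genes grouped as linked to p53, Foxo3 moved most. It went from 20.2, 16.5 and 28.3 to 79.5, 48.0 and 71.6 TPM in Type V, without overlap (1.57 ± 0.42 log2, 2.97-fold, adjusted p = 0.019). In Type D it went from 15.5, 38.1 and 26.6 to 36.2, 109.8 and 44.8 TPM. Every Type D line rose, but line 1 after restoration lay below line 2 before it, and the change of 1.14 ± 0.42 passed only with the block (adjusted p = 0.083 without, 3.4e-05 with). Foxo3 belongs to a module that the study drew from these samples, so this rise is not independent evidence. Dram1 went from 0.428, 1.85 and 1.72 to 1.30, 3.13 and 2.39 TPM in Type D. In Type V it went from 2.44, 78.0 and 8.79 to 4.65, 30.4 and 10.3 TPM, up in lines 1 and 3 and down in line 2. Its changes of 0.51 ± 1.06 and -0.14 ± 1.06 passed under neither fit (with the block 0.29 and 0.81). Dram2, a relative of Dram1, changed by 0.58 ± 0.24 in Type D (adjusted p = 0.13, and 0.00054 with the block) and by 0.10 ± 0.24 in Type V. Over the 11 members that earlier work describes as p53 targets (Ulk1, Ulk2, Uvrag, Vmp1, Atg2b, Atg4a, Atg4c, Atg7, Atg10, Dram1 and Foxo3), the medians were 0.53 (Type D) and 0.40 (Type V). Over the other 34 it was 0.37 and 0.25. In Type D 1 of the 11 and 7 of the 34 rose, beside 7.82% of all genes. In Type V 1 of the 11 and 2 of the 34 rose, beside 5.38%.

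The fusion tether gene Epg5 rose in Type D from 13.2, 6.63 and 14.1 to 42.4, 19.9 and 26.4 TPM, with no overlap (1.31 ± 0.35 log2, 2.48-fold, limma adjusted p = 0.019). In Type V it went from 7.29, 6.24 and 5.15 to 11.5, 7.0 and 6.36 TPM, a change of 0.33 ± 0.35 (adjusted p = 0.68). Stx17, the SNARE gene of the closed autophagosome, changed by 0.37 and 0.22 log2. The calls in Type D rest on 3 lines. In fits without the block that left out line 1, 2 or 3, the number of members that rose was 4, 2 and 4, and Atg7 and Atg14 passed each time. Of the 14104 genes, 514, 485 and 528 rose in these fits. Sqstm1, Epg5, Nbr1 and Pink1 missed the threshold whichever line was left out (for Sqstm1 the adjusted p was 0.18, 0.29 and 0.06), and Wipi1 (0.081) and Atg12 (0.061) did without line 2. Leaving out line 1, 2 or 3 of Type V left 0, 1 and 2, with Foxo3 and Wipi1 past the threshold in none of the 3 and Optn only without line 2 (0.033), so the 2 that passed without line 3 were other members. Of all genes, 447, 665 and 431 then rose in Type V and 311, 380 and 492 fell.

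**Figure D2:**
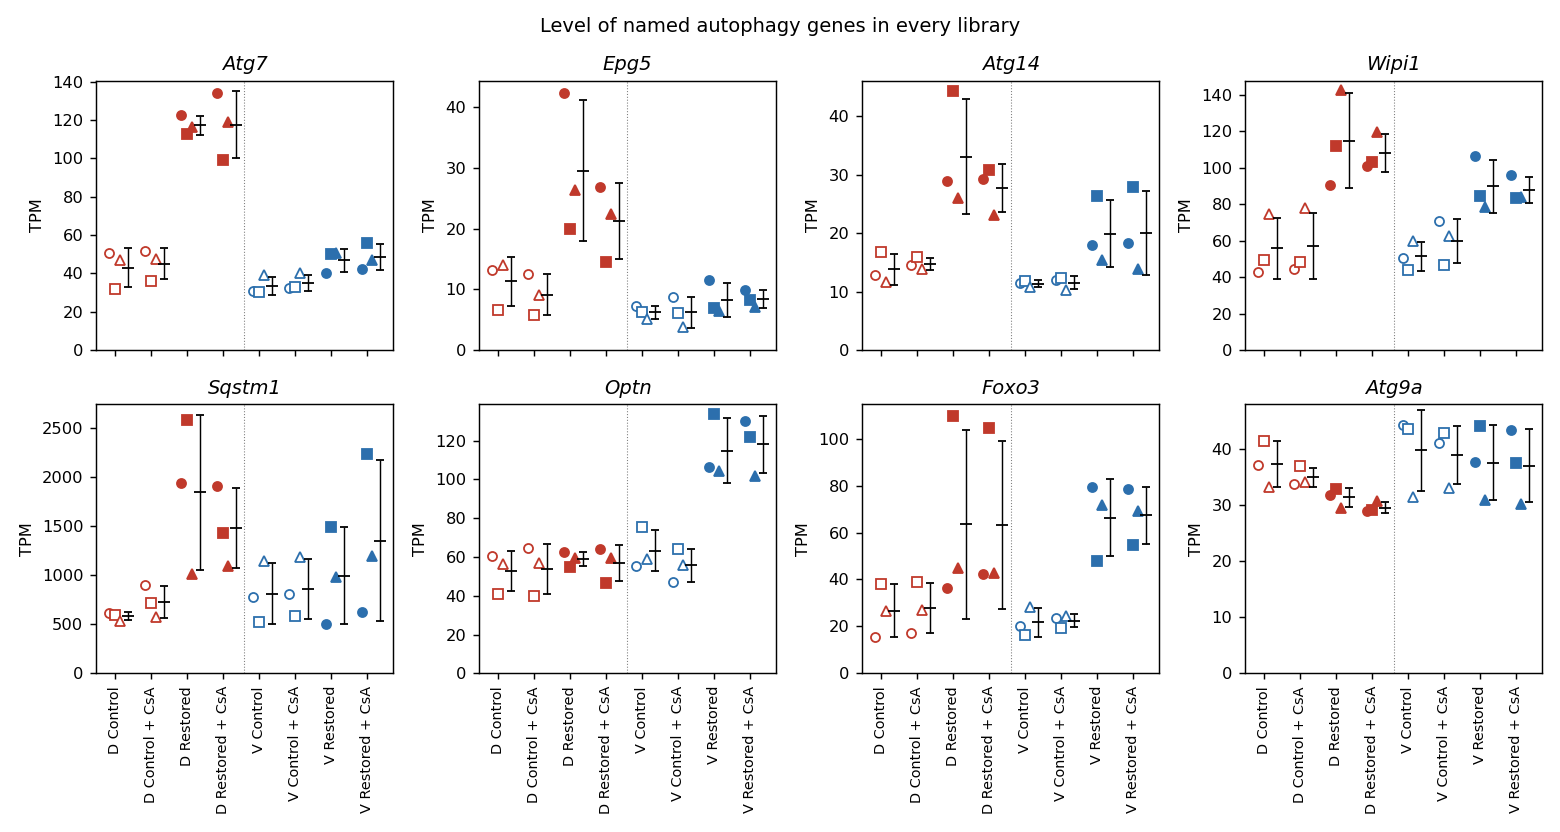
TPM of 8 autophagy genes in all 24 libraries, Type D in red and Type V in blue, with open symbols without and filled symbols with p53 restoration; circle, square and triangle are lines 1, 2 and 3 of a type, and the bar is the mean with its SD (n = 3 lines). Restored Type D libraries of Atg7 lie between 99.2 and 134 TPM, above all others, Optn is highest in restored Type V libraries, and Atg9a stays between 28.9 and 44.2 TPM throughout.

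Whether the response itself differed between the types was tested as the difference of the differences. Without the block 0 of the 45 members passed, where 0.0284% of all genes did (4 of 14104, and 540 at an unadjusted p under 0.05), and the standard errors of single genes ran from 0.20 to 1.49 log2. With the cell line as a block, 5 members passed, where 5.57% of all genes did. Atg7 rose more in Type D by 0.98 ± 0.16 log2 (adjusted p = 0.0034), Epg5 by 0.98 ± 0.20 (0.013), Ulk1 by 0.50 ± 0.13 (0.033) and Wipi2 by 0.37 ± 0.11 (0.0498). Optn rose more in Type V, with a difference of -0.67 ± 0.15 (adjusted p = 0.019). Sqstm1 had the widest gap, 1.33 log2, but its Type V lines moved in different directions and it did not pass under either fit (adjusted p = 0.16 with the block).

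**Figure D3:**
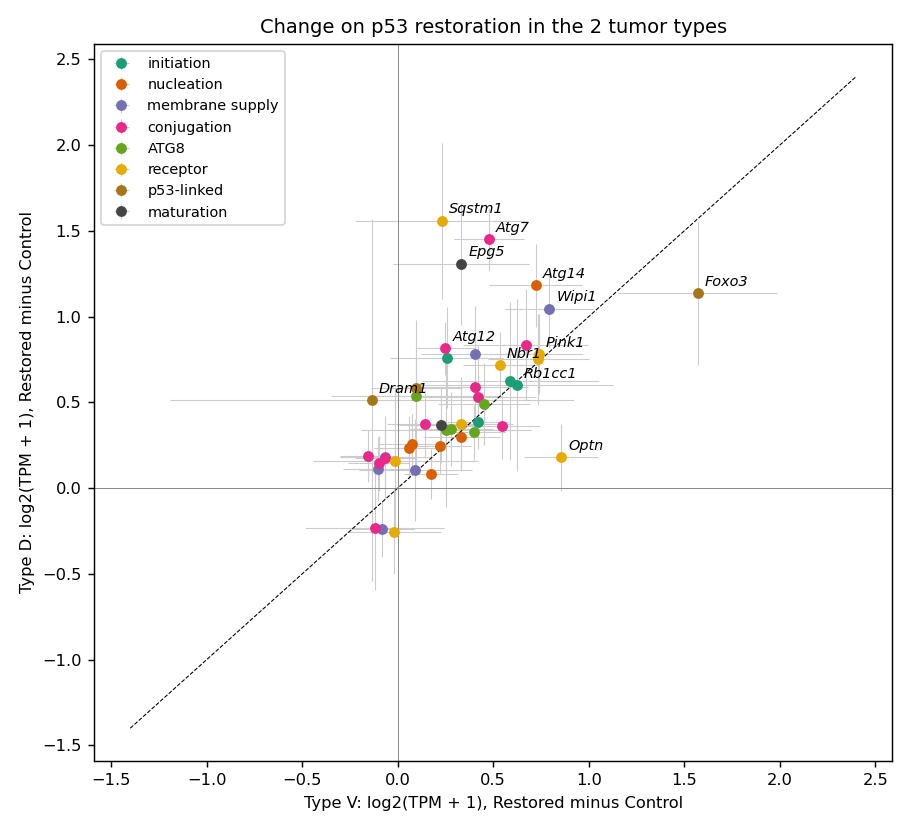
Change of each autophagy gene on p53 restoration in Type D (y axis) and Type V (x axis), as log2(TPM + 1), Restored minus Control; bars are SE from the fit without the block, colors are roles and the dashed line marks equal change. Sqstm1, Atg7 and Epg5 lie well above the line and Optn and Foxo3 below it.

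A further question was whether the types already differed before p53 came back. In Control, 1 member was higher in Type D and 3 were lower, against 5.91% and 7.21% of all genes. Of these, 0 differed by 1 log2 or more, where 8.83% of all genes did. Dram2 was higher (36.8, 57.2 and 43.2 against 23.8, 22.6 and 33.9 TPM, 0.75 ± 0.24 log2, adjusted p = 0.046). Atg3 was lower, with 42.0, 39.8 and 37.7 TPM in Type D against 63.7, 73.2 and 70.8 TPM in Type V (-0.78 ± 0.15, adjusted p = 0.0018). Atg4a, a protease gene that processes ATG8 proteins, had 9.02, 13.1 and 9.94 against 19.5, 20.4 and 25.4 TPM (-0.97 ± 0.20, adjusted p = 0.0025). Pink1 had 24.7, 26.5 and 29.2 against 38.7, 43.3 and 67.1 TPM (-0.83 ± 0.23, adjusted p = 0.023). In all 4 the libraries of the types did not overlap. For Atg4a, 41.3% of the 75-base stretches of its transcripts also occur in the pseudogene Atg4a-ps, so its value depends on how shared reads were counted. The expression table has no entry for Atg4a-ps. Without Type D line 1 the number of members that differed was 2, and without Type V line 2 it was 8. Of the 14104 genes, 505 were higher and 472 lower in Type D in the first of these fits, and 1038 and 1579 in the second. Over all members the types did not overlap for 8 of 45 genes, where 31.4% of all genes did not, 7 of them higher in Type V. Quantile normalization and median-ratio scaling moved the median of all genes by 0.09 and 0.10 log2 in this comparison and gave 24 and 26 members above 0 instead of 16, so no direction holds for the set.

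In Restored 4 members were higher and 4 lower in Type D, against 6.79% and 8.04% of all genes, and 4 differed by 1 log2 or more, where 9.44% of all genes did. Higher in Type D were Epg5 (1.69 ± 0.35 log2, adjusted p = 0.0034), Atg7 (1.31 ± 0.18, 8.4e-05), Dram2 (1.23 ± 0.24, 0.0019) and Atg12 (0.76 ± 0.15, 0.0026). Dram2 then had 54.0, 97.1 and 59.4 TPM in Type D against 24, 29.7 and 31.8 TPM in Type V. Lower in Type D were Atg4a (-1.15 ± 0.20, adjusted p = 0.00058), Optn (-0.94 ± 0.20, 0.0031), Pink1 (-0.78 ± 0.23, 0.029) and Gabarap (-0.54 ± 0.16, 0.029). Atg4a had 11.4, 16.6 and 14.2 TPM in Type D and 31.9, 27.8 and 36.9 TPM in Type V. The types did not overlap for 13 of the 45 genes, where 29.2% of all genes did not. These comparisons use the same libraries as the changes on restoration, so they are no second test of them. A line gives 1 library to each, so the line cannot be entered as a block.

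**Figure D4:**
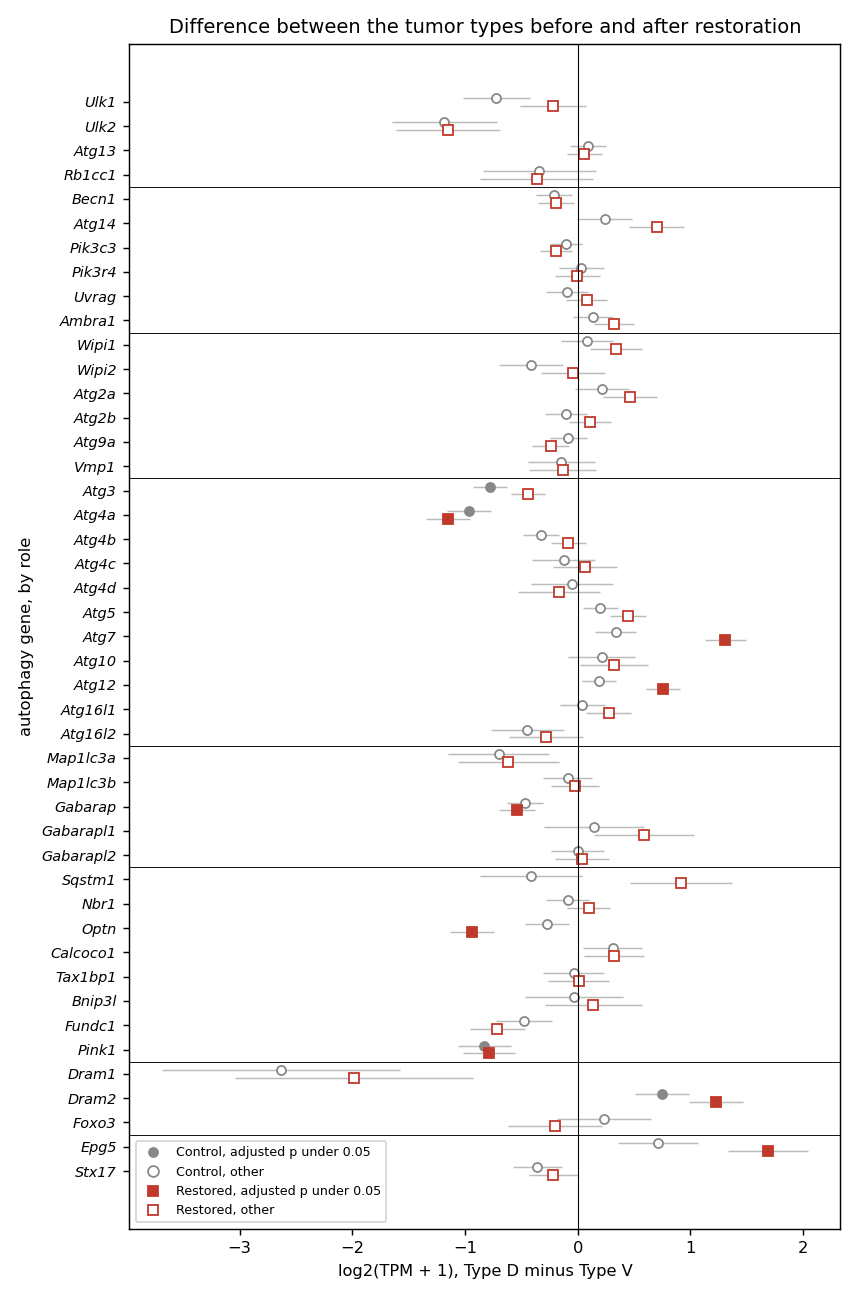
Difference of each autophagy gene between the types, as log2(TPM + 1), Type D minus Type V, in Control (grey circles) and Restored (red squares); bars are SE, filled symbols passed an adjusted p of 0.05, and horizontal lines separate the roles. Epg5, Atg7, Atg12 and Optn lie farther from 0 in Restored than in Control, while Atg4a and Pink1 differ before and after.

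The study used CsA to block the death of Type D cells, so its effect on the same genes was examined. Without restoration 0 members changed with CsA in Type D (0% of all genes, 114 of 14104 at an unadjusted p under 0.05) and 0 in Type V (0%, 54 unadjusted). With restoration 0 members changed in Type D, where 0.0142% of all genes did (229 unadjusted), and 0 in Type V (0%, 100 unadjusted). With the block 0 members changed in each of the 4 comparisons, against 0.0142% (Type D) and 0% (Type V) of all genes without restoration and 0.411% and 0% with it. At an unadjusted p under 0.05 the block fit gave 953, 609, 1771 and 633 of all genes in that order. The changes of single members with CsA lay between -0.43 and 0.48 log2 over these comparisons. The lowest was Epg5 in restored Type D cells, with 42.4, 19.9 and 26.4 TPM without and 26.9, 14.5 and 22.4 TPM with CsA (-0.43 ± 0.35, adjusted p = 1.0, and 0.20 with the block). Atg7 had 122, 113 and 116 TPM without and 134, 99.2 and 119 TPM with CsA.

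**Figure D5:**
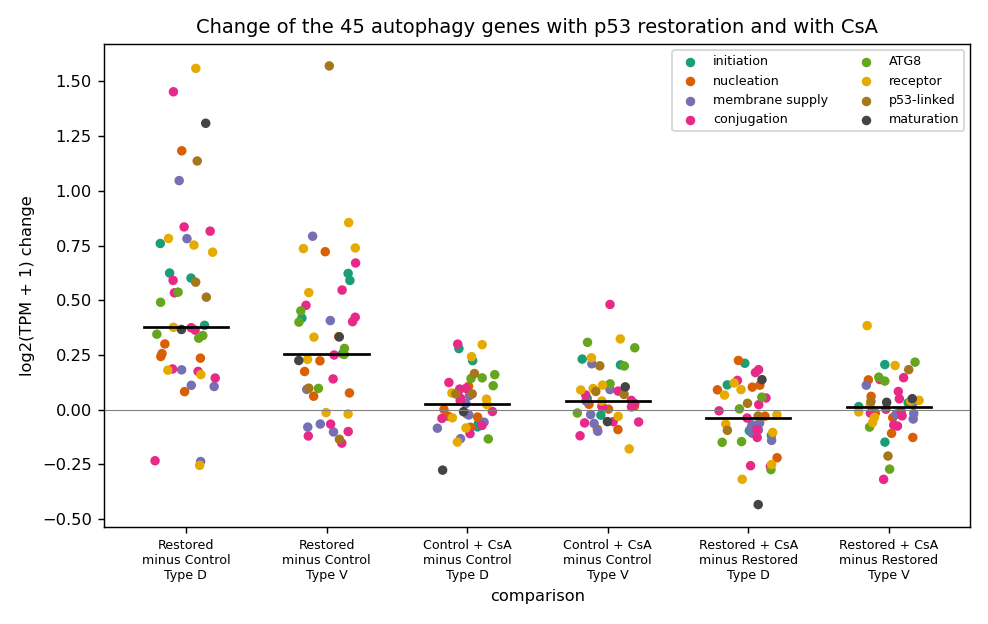
Changes of the 45 autophagy genes in log2(TPM + 1) with p53 restoration (left pair of columns) and with CsA (right 4 columns); each point is a gene colored by role and the black bar is the median. CsA changes center on 0 (medians -0.04 to 0.04), and those with restoration on 0.38 (Type D) and 0.26 (Type V).

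The changes on restoration in the presence of CsA come from separate libraries of the same lines. In Type D 5 members rose and 0 fell, against 5.98% and 2.91% of all genes, and 2 of them changed by 1 log2 or more (5.41% of all genes). Atg7 rose by 1.37 ± 0.18 (adjusted p = 5.1e-05), Epg5 by 1.15 ± 0.35 (0.049), Wipi1 by 0.95 ± 0.23 (0.012), Atg14 by 0.86 ± 0.24 (0.032) and Nbr1 by 0.65 ± 0.19 (0.04). Sqstm1 went from 900.5, 713 and 573 to 1916, 1435 and 1100.2 TPM, without overlap (1.01 ± 0.45, adjusted p = 0.19, and 0.045 with the block). With the block 27 members rose and 1 fell, against 27.2% and 14% of all genes, and the one that fell was Atg9a. In Type V 2 members rose and 0 fell, against 4.3% and 3.4% of all genes. They were Foxo3 (1.54 ± 0.42, adjusted p = 0.026) and Optn (1.07 ± 0.20, 0.0012), and both changed by 1 log2 or more (4.61% of all genes). With the block 20 rose and 0 fell, against 20.6% and 16.5% of all genes. Sqstm1 in Type V again moved differently by line, from 806 to 625, from 586 to 2240 and from 1189 to 1195 TPM in lines 1, 2 and 3. Across all genes the split in Type D was 843 up and 411 down, but 653 and 683 under median-ratio scaling, which leaves 35 of the 45 members above 0 instead of 40.

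Beyond the 45, 41 further autophagy genes were read in the same way, of which 39 were expressed well enough to be tested. In Type D 8 rose and 1 fell, against 7.82% and 5.05% of all genes, and in Type V 3 rose and 1 fell, against 5.38% and 4.57%. The medians were 0.33 and 0.17 log2. The widest rise was in Atg9b, the paralog of Atg9a, which went from 8.78, 2.86 and 3.49 to 356, 197 and 213 TPM in Type D and from 0.409, 1.00 and 3.61 to 214, 71.0 and 447 TPM in Type V. Its changes were 5.48 ± 0.70 and 6.34 ± 0.70 log2, in lines where Atg9a moved by -0.24 and -0.08. Trp53inp1, a p53 target whose product binds ATG8 proteins, went from 23.5, 24.6 and 32 to 380.5, 296 and 355 TPM in Type D and from 35.0, 16.8 and 37.7 to 313, 176 and 235 TPM in Type V. The changes were 3.64 ± 0.33 and 3.01 ± 0.33. Both belong to a module the study chose on these samples. Past the threshold with a change of 1 log2 or more in Type D alone were Tecpr1, a tether gene (51.9, 82.4 and 60.5 to 130.5, 217 and 117 TPM, 1.21 ± 0.35), and Mitf, a relative of Tfeb (0.844, 0.371 and 1.48 to 2.63, 3.55 and 5.44 TPM, 1.36 ± 0.41). In Type V they changed by 0.68 and 0.21 log2. The difference between types passed for neither without the block, and for Mitf alone with it (1.15 ± 0.29, adjusted p = 0.032). The HOPS complex, which tethers vesicles to the lysosome, was singled out after its values were seen. Of its 6 subunits, 4 rose in Type D and 1 in Type V, beside 7.82% and 5.38% of all genes. In Type D, Vps41 changed by 0.78 log2, Vps18 by 0.99, Vps39 by 0.66 and Vps16 by 0.33, while Vps11 (0.46) and Vps33a (0.26) passed only with the block. In Type V, Vps41 rose by 0.69, and the other 5 changed by 0.04 to 0.42 and did not pass without the block. Phb2, which encodes an inner mitochondrial membrane receptor, fell by 0.60 in Type D and by 0.56 in Type V. In Control, Tecpr1 (1.36 ± 0.35) and the ferritin receptor gene Ncoa4 (1.14 ± 0.36) were higher in Type D and Tfe3, a relative of Tfeb, was lower (-1.14 ± 0.30). With CsA, 0 of the 39 passed without the block, and 1 did with it. This was Bnip3, a mitochondrial receptor gene, which in restored Type D lines had 85.8, 123 and 524 TPM without and 25.6, 50.7 and 166 TPM with CsA (-1.54 ± 0.16, adjusted p = 0.0012 with the block, and 1.0 without it).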

How the data were processed

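The authors deposited a single table of TPM for 24 libraries, which was used as deposited. Libraries were stranded and made from mRNA. The submitters' processing notes list HISAT2, mm10 and GRCm39, while kallisto is an alternative in the study's methods, so which tool and build made the table is uncertain. Depth is unknown. Columns were matched to cell line and treatment by name, and 0 columns were left unused.

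The 45 members, their roles and all other lists were chosen with earlier results of these data known. Values were analysed as log2(TPM + 1), a scale on which the changes of low genes are understated. The 14104 genes at 1 TPM or more in at least 3 libraries entered limma (version 3.58.1, R version 4.3.3, trended empirical Bayes), with 1 mean for each of the 8 groups. P-values are two-sided and were adjusted by Benjamini-Hochberg over all 14104 genes within each of 11 comparisons. Genes passed at an adjusted p under 0.05. Members that passed with a change of 1 log2 or more in any comparison, or that led their role on restoration, are given by library without CsA. So are genes outside the set that reached this on restoration, while Ncoa4 and Tfe3 are given by their changes. Atg12, Atg3, Pink1, Dram1, Atg9a, the HOPS genes, Phb2 and Bnip3 were added after their values were seen.

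The labels name the line of each library, which pairs the libraries, so the line block was fitted as an alternative. After removal of group means, libraries of a line correlated with r of 0.599 to 0.929 (36 pairs) and others of the type with r of -0.675 to 0.0438 (72 pairs). What remains of the 3 lines in a group sums to 0, which ties the second range to the first. The second range is therefore no separate evidence of pairing. The replicates are separate cell lines. Their names begin with 4711 (Type D lines 1 and 2, Type V line 1) or 4716 (Type D line 3, Type V lines 2 and 3). The labels do not say what this prefix stands for, and its part in the results was not tested. In simulated data for restoration in Type D (14104 genes, 200 changed, 3 draws), a call needed both a pass and 1 log2 or more. Without the block limma called 69.3% of 1.5 log2 changes and 89% of 3 log2 changes. With the block it called 83.3% and 96.3%. False calls averaged 0.333 a draw without the block and 3.33 with it. They give no error rate for the counts of passes here, many of which lie under 1 log2. In the real data 3899 genes rose and 2485 fell with the block in Type D, far more than the 200 simulated. The fits were repeated with a pseudocount of 0.1, without a filter, with a minimum of 5 TPM, after quantile normalization or median-ratio scaling, on the compared groups alone, and with each line left out. All of these were fitted without the block, so the spread between lines stayed in them. Shared 75-base stretches and positions come from GENCODE M21 on GRCm38, promoters from RefSeq. Stretches that also occur in other annotated genes made up 16.9% for Bnip3l and 9.53% for Gabarapl2 as well. Plots used matplotlib 3.10.9 (Python 3.11.15). Chromatin, protein and in vivo data were not analysed here.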

Additional observations from a re-analysis of the deposited data

Results flagged for a closer look

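For 5 members the response to restoration differed between the types when the cell line was entered as a block. The difference, Type D minus Type V, was 0.98 log2 for Atg7, 0.98 for Epg5, 0.50 for Ulk1, 0.37 for Wipi2 and -0.67 for Optn. Without the block 0 members passed this test in limma. Atg7, Epg5 and Optn had positive changes in all 6 lines, but the change of Epg5 in Type V and that of Optn in Type D did not pass, with or without the block.

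For Atg2a and Atg3 all lines of one type moved one way and all lines of the other type the other way. The difference was 0.25 log2 for Atg2a and 0.34 for Atg3, and neither passed the test with or without the block.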

How the results depend on the processing

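Entering the cell line as a replicate block moved the count of members that passed on restoration from 8 to 30 in Type D, from 3 to 22 in Type V, from 5 to 28 in Type D with CsA and from 2 to 20 in Type V with CsA, and from 0 to 5 for the difference between types. With the block, the all-gene counts of rises went from 1103 to 3899 (Type D) and from 759 to 3219 (Type V). With CsA they went from 843 to 3834 (Type D) and from 607 to 2909 (Type V). For the difference between types, 4 genes passed without the block and 785 with it. The block changed no call of the CsA effects on the 45 members. Fitting no other groups gave 1 member in place of 4 for the types in Control, 2 in place of 8 in Restored, and 0 in place of 3 for restoration in Type V. Of all genes, 343 were then higher and 370 lower in Type D in Control, and 261 and 246 in Restored. On restoration in Type V, 176 rose and 133 fell. In Type D with CsA, no filter, quantile normalization and median-ratio scaling each gave 3 in place of 5. Of all genes, 773, 609 and 653 rose in these fits, in place of 843. Without replicate lines in turn the counts ran from 2 to 8 for the types in Control (8 without Type V line 2, 2 without Type D line 1), from 6 to 12 in Restored, from 2 to 4 in Type D, 0 to 2 in Type V, 1 to 2 in Type D with CsA, and were 1 each time in Type V with CsA. Of all genes, fewest differed between the types in Control without Type D line 1 (505 higher, 472 lower). Most differed without Type V line 2 (1038 and 1579). In Restored the same fits were the extremes, with 519 and 457, and 1126 and 1732. The median change of the 45 members in Type D was 0.38 log2, 0.35 with quantile normalization, 0.28 with median-ratio scaling, 0.49 as a mean and 0.39 to 0.42 without a line, and in Type V 0.26 to 0.36 without a line. The median of the 6 membrane supply genes in Type V, 0.01 log2, turned to -0.0037 with quantile normalization, -0.014 with median-ratio scaling and lay between -0.020 and 0.057 without each Type V replicate (-0.020 without replicate 2). Of the 30 gene results that passed, 6 passed under every alternative, and none changed sign. With 3 lines a group and unknown depth, changes well under 1 log2 are at the limit of the test without the block.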
